A study of Homo sapiens with 16 samples.

Results

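The genes described are the transcription machinery that a Tcf/Lef reporter reads: the 4 TCF/LEF factors (TCF7, TCF7L1, TCF7L2 and LEF1), β-catenin (CTNNB1), its coactivator BCL9 and the 4 long Groucho corepressors (TLE1, TLE2, TLE3 and TLE4). They were taken by name, and all 10 were matched by Ensembl identifier among the 57820 genes of the table. The samples are MDA-MB-231 and MDA-MB-436, human triple-negative breast cancer lines of mesenchymal character, each carrying the 7TGP reporter, in which Tcf/Lef binding sites drive eGFP, and sorted on eGFP into a reporter-positive (7TGP-POS) and a reporter-negative (7TGP-NEG) subline. Every subline was grown in low serum (0.5% FBS, harvested on day 3) and in standard serum (10% FBS, day 6), with 2 biological replicates each, which gives 8 groups and 16 libraries of bulk RNA-Seq. All groups carry the vector, POS and NEG cells alike, and each subline is 1 sorted and expanded pool, so the replicates measure the spread within that pool and not between independent sorts; beyond being called biological, how the replicates were made is not stated. The methods give a different library kit, RNA selection (rRNA depletion in low serum, polyadenylated RNA in standard serum) and sequencer for each serum condition, whereas the labels name 1 kit for all libraries. Serum, days in culture and library preparation therefore cannot be told apart, and values from the serum conditions are set side by side without a test. The methods also give a different culture medium for each line, so line and medium cannot be told apart in any comparison between the lines.

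In canonical Wnt signalling, β-catenin that escapes destruction enters the nucleus and binds TCF/LEF proteins, which sit on DNA at a short motif. Without β-catenin, TCF/LEF proteins recruit Groucho/TLE corepressors and keep target genes off. With β-catenin, BCL9 and its Pygopus partners are recruited and targets are switched on. TCF7L1 is known mainly as a repressor, LEF1 and TCF7 mainly as activators that are themselves Wnt targets in many tissues, and TCF7L2 acts in either way.

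Library totals ran from 27918418 to 32667756 counts in low serum and from 31827130 to 46044073 in standard serum. The chi-square per degree of freedom between replicates was 3.18 to 7.61 in low serum and 8.05 to 30.1 in standard serum, highest between the 2 libraries of MDA-MB-436 7TGP-POS, so the fold changes of the 10 genes that rest on that group were also fitted without each of them, and so were those of the called partner genes, the latter a choice made after seeing the data. Of the markers of the lines, CDH1 (E-cadherin) was near 0 in every group (mean TPM of 0.04 to 0.10), the summed TPM of 6 mesenchymal genes was 581.83 to 4313.8, and CDKN2A was at a mean TPM of 0 to 0.105 in MDA-MB-231 and 68.67 to 81.25 in MDA-MB-436. The mesenchymal sum was lower in POS than in NEG cells of MDA-MB-231 in each serum condition (1152 to 1293.2 against 2623.1 to 2686.6 in low serum). Most of that sum was VIM, at a mean TPM of 1016 in POS against 2421 in NEG in low serum, and 1864 against 3712 in standard serum. FN1 and ZEB1 were also lower in POS by mean TPM, and CDH2 and TWIST1 were scarce. SNAI2 went the other way (24.05 in POS against 17.41 in NEG in low serum, 40.14 against 24.01 in standard serum). In MDA-MB-436 the sum overlapped in low serum (581.83 to 639.71 in POS and 598.7 to 643.02 in NEG). It was higher in POS with standard serum (1029.5 to 1078.8 against 664.18 to 719.22). The part of these shifts in the results below was not tested. KRT19, an epithelial keratin, was high in MDA-MB-231 (mean TPM of 512.6 to 1070) and at 0 to 0.95 in MDA-MB-436. Of 4 markers of leukocytes and endothelium, 3 were found: CD3E was at a mean TPM of 0.025 or less, PTPRC at 4.04 or less and LYZ at 11.71 or less, the higher values in MDA-MB-231. The eGFP transcript is not a row of the gene table, so the sort is not checked here. In bulk RNA, fewer cells with a transcript and less of it per cell cannot be told apart.

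**Figure D1:**
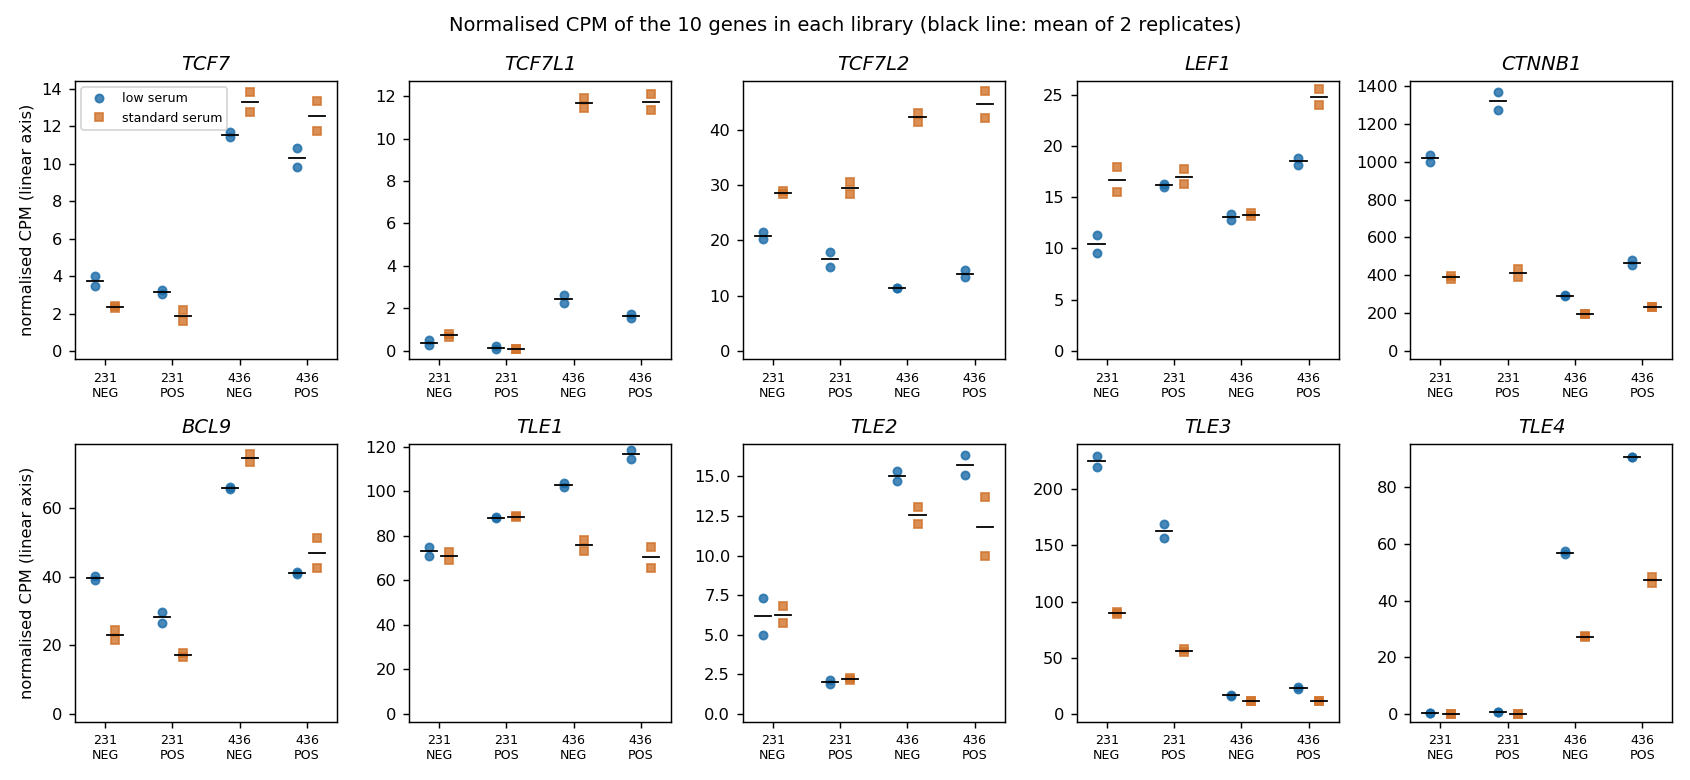
Normalised CPM (CPM, counts scaled by library total and TMM factor; linear axes, a scale of its own for each gene) of the 10 genes in each of the 16 libraries; circles are low serum, squares standard serum, and a black line is the mean of 2 replicates. TLE4 is near 0 in MDA-MB-231 and TLE3 is low in MDA-MB-436, and BCL9 is lower in POS than in NEG libraries in every pair of groups.

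The first question is which of these genes differ between reporter-positive and reporter-negative cells of the same line. BCL9 was lower in POS cells in all 4 comparisons, and LEF1 and CTNNB1 were higher in 3 of 4. TLE2 and TLE3 changed differently in the lines in each serum condition. With edgeR and an adjusted p under 0.05, 8 of 10 genes passed in MDA-MB-231 in low serum (4 higher, 4 lower) against 38.9% of all genes tested, and 8 of 10 in MDA-MB-436 in low serum (6 higher, 2 lower) against 52.0%. In standard serum, 5 of 10 passed in MDA-MB-231 (1 higher, 4 lower) against 33.0%, and 4 of 10 in MDA-MB-436 (3 higher, 1 lower) against 49.5%. With the added threshold of a change of 1 or more on the log2 scale in either direction, 2 genes remained in MDA-MB-231 in low serum (background 5.90%) and 2 in standard serum (7.69%), and 0 in MDA-MB-436 in low serum (10.5%) and standard serum (12.5%). The median log2 fold change over the 10 genes was −0.29 in MDA-MB-231 and 0.24 in MDA-MB-436 in low serum, beside −0.01 and 0.01 over all genes tested. In standard serum it was −0.33 over the 9 genes with counts in MDA-MB-231 (−0.16 over all 10) and 0.02 in MDA-MB-436, beside 0 and 0.00 over all genes.

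**Figure D2:**
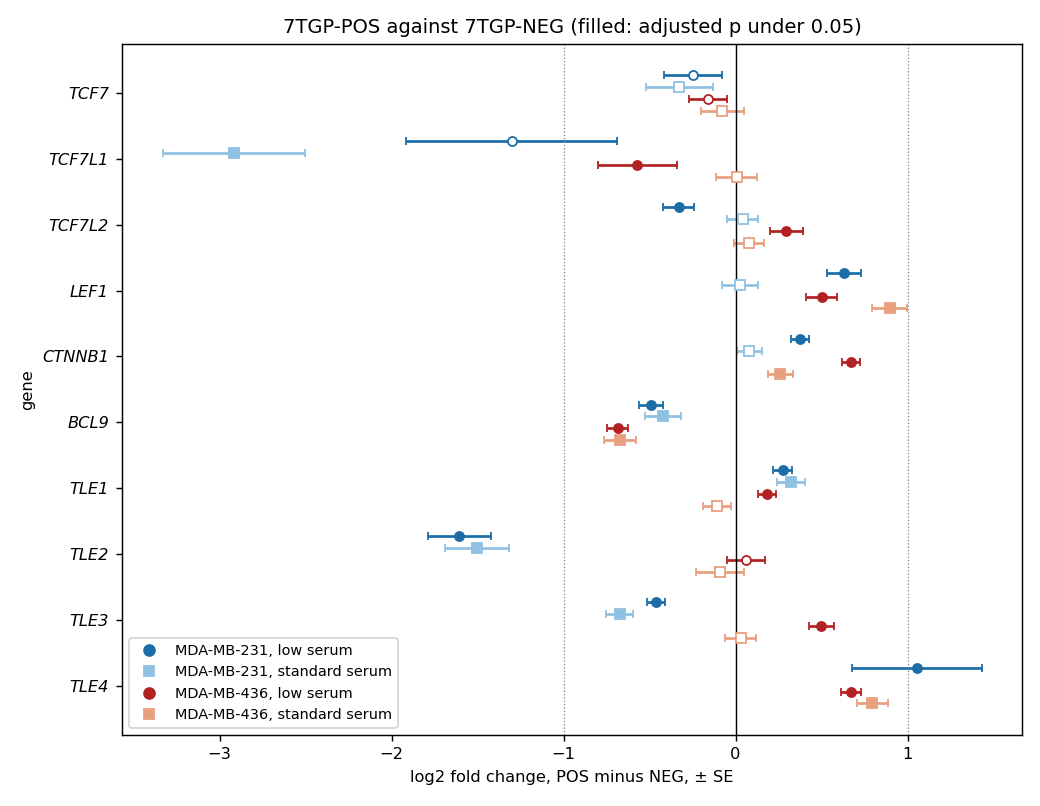
Log2 fold change of POS over NEG with its standard error, for each gene in the 4 comparisons; filled symbols have an adjusted p under 0.05, dotted lines mark a log2 fold change of −1 and 1, and TLE4 in MDA-MB-231 in standard serum is left out because its libraries held 0 counts. BCL9 lies left of 0 in all 4 comparisons (−0.69 to −0.42), and TLE2 falls in MDA-MB-231 (−1.61 and −1.505) but lies near 0 in MDA-MB-436.

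Of the TCF/LEF genes, LEF1 rose in 3 of the 4 comparisons. In low serum, normalised CPM of LEF1 was 11.3 and 9.54 in MDA-MB-231 NEG and 16.04 and 16.3 in POS, a log2 fold change of 0.63 ± 0.10 (SE, adjusted p = 1.42e-06). In MDA-MB-436 it was 12.8 and 13.4 in NEG and 18.2 and 18.9 in POS (0.50 ± 0.09, adjusted p = 1.36e-05). POS and NEG replicates did not overlap in either line, and the rise did not differ between the lines by the interaction test (0.13, adjusted p = 0.46, 95% interval −0.14 to 0.40). In standard serum, LEF1 was at 13.5 and 13.1 in MDA-MB-436 NEG and at 25.5 and 24.0 in POS, which is 1.86-fold higher (log2 0.90 ± 0.10, adjusted p = 9.13e-07). In MDA-MB-231 it was at 17.97 and 15.5 in NEG and 16.3 and 17.8 in POS, with overlapping replicates (0.02 ± 0.10, adjusted p = 0.91). The difference between the lines in standard serum passed the test (−0.87, adjusted p = 9.64e-05). Without replicate 1 or 2 of MDA-MB-436 POS, the LEF1 change there was 0.84 and 0.94. The rise of LEF1 in MDA-MB-436 in low serum was not called on log2(TPM + 1) (0.22, adjusted p = 0.17), a scale on which the median of all genes was itself 0.22 lower.

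TCF7L1, the repressor-type factor, was close to the limit of counting in MDA-MB-231. In standard serum it had 21 and 23 counts in NEG and 3 and 3 in POS, whose ratio of POS to NEG is 0.128 with a 95% counting interval of 0.0447 to 0.302 (adjusted p = 2.24e-05). In low serum it had 8 and 13 counts in NEG and 2 and 6 in POS, a ratio of 0.398 with a counting interval of 0.153 to 0.936 that did not pass the test across all genes (adjusted p = 0.091); without POS replicate 2 it did (−2.32, adjusted p = 0.044). All POS libraries were thus below all NEG libraries of this line, at a depth where single reads matter; these intervals cover counting error only. In MDA-MB-436, TCF7L1 was at 11.5 and 11.9 normalised CPM in NEG and 12.1 and 11.4 in POS in standard serum, which overlap (log2 0.01 ± 0.12, 95% interval −0.23 to 0.24). In low serum it was at 2.63 and 2.27 in NEG and 1.57 and 1.74 in POS (−0.57 ± 0.23, adjusted p = 0.036). That low-serum call is marginal, since it was lost with DESeq2 (−0.60, adjusted p = 0.25), over all biotypes, and without any 1 of the 4 libraries of the line (−0.68 to −0.46). The TCF7L1 changes of the lines differed in standard serum (interaction −2.92 ± 0.44, adjusted p = 3.06e-05) and were not shown to differ in low serum (−0.73 ± 0.66, adjusted p = 0.39).

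TCF7L2, which held the largest mean share of TCF/LEF TPM in 6 of 8 groups, moved in opposite directions in low serum. It fell in MDA-MB-231, from 21.5 and 20.2 to 17.9 and 15.2 (−0.33 ± 0.09, adjusted p = 0.0030), and rose in MDA-MB-436, from 11.3 and 11.4 to 13.4 and 14.6 (0.30 ± 0.10, adjusted p = 0.010). The difference between the lines passed (−0.63, adjusted p = 0.00014). Each of these TCF7L2 calls was marginal: the fall in MDA-MB-231 was lost without NEG replicate 1 (−0.29, adjusted p = 0.060) or POS replicate 2 (−0.22, adjusted p = 0.095), and the rise in MDA-MB-436 was lost with DESeq2 (0.26, adjusted p = 0.098), without NEG replicate 1 (0.28) or POS replicate 2 (0.20), and on log2(TPM + 1) (0.04). In standard serum TCF7L2 was at 28.3 to 30.6 in MDA-MB-231 and 41.5 to 47.1 in MDA-MB-436, with no call in either line (0.04 and 0.08, adjusted p = 0.78 and 0.47). TCF7 passed in no POS against NEG comparison, with log2 fold changes of −0.33 to −0.08 and the widest 95% interval, in MDA-MB-231 in standard serum, of −0.71 to 0.05. On log2(TPM + 1), TCF7 in MDA-MB-436 in low serum was −0.30 with an adjusted p of 0.033. TCF7 overlaps SKP1 on the opposite strand, a gene with up to 4393 counts in a library, and the strand setting of the counting is not given in the sources used here.

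CTNNB1, which encodes β-catenin, was by far the most abundant of the 10 transcripts (109.39 to 392.53 TPM). In low serum it rose from 1001 and 1036 to 1272 and 1369 normalised CPM in MDA-MB-231 (0.37 ± 0.05, adjusted p = 7.15e-08) and from 295.6 and 290.5 to 480.1 and 454.1 in MDA-MB-436 (0.67 ± 0.05, adjusted p = 1.78e-14). The rise was larger in MDA-MB-436 by the interaction test (−0.30, adjusted p = 0.00066). In standard serum CTNNB1 was at 195.4 and 193.1 in MDA-MB-436 NEG and 230.3 and 234.6 in POS (0.26 ± 0.07, adjusted p = 0.0064), and at 397.3 and 380.7 against 431.3 and 391.6 in MDA-MB-231 (0.08 ± 0.07, adjusted p = 0.44). On log2(TPM + 1), the rise in MDA-MB-231 in low serum was 0.17 and not called (adjusted p = 0.16), where the median of all genes was −0.18. Without replicate 1 or 2 of MDA-MB-436 POS in standard serum, CTNNB1 rose by 0.26 and 0.24. β-Catenin activity is set mainly by protein stability, which RNA does not measure.

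BCL9, which links β-catenin to Pygopus, fell in POS cells in every comparison. In low serum, it went from 40.1 and 39.1 to 29.6 and 26.6 in MDA-MB-231 (−0.49 ± 0.07, adjusted p = 1.05e-07) and from 66.2 and 65.7 to 41.4 and 40.6 in MDA-MB-436 (−0.69 ± 0.06, adjusted p = 1.61e-12). In standard serum, it went from 24.3 and 21.6 to 17.8 and 16.5 in MDA-MB-231 (−0.42 ± 0.10, adjusted p = 0.0039) and from 73.6 and 75.9 to 51.3 and 42.4 in MDA-MB-436 (−0.67 ± 0.09, adjusted p = 1.17e-05). In all 4 comparisons, each POS library lay below each NEG library of its line, and the size of the fall was not shown to differ between the lines (interaction 0.19 and 0.25, adjusted p = 0.081 and 0.17). That standard-serum interaction rests on the MDA-MB-436 POS libraries: without replicate 1 it was 0.399 and passed (adjusted p = 0.010), and without replicate 2 it was 0.11 (adjusted p = 0.44). The call in MDA-MB-231 in standard serum was lost without NEG replicate 1 (−0.33, adjusted p = 0.070) or POS replicate 2 (−0.37, adjusted p = 0.062). Without replicate 1 or 2 of MDA-MB-436 POS in standard serum, BCL9 fell by 0.83 and 0.55 on the log2 scale.

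Among the Groucho genes, TLE2 showed the largest fall by fold, and in MDA-MB-231. In low serum TLE2 was at 4.96 and 7.34 in MDA-MB-231 NEG and 2.14 and 1.88 in POS, which is 3.04-fold lower (log2 −1.61 ± 0.18, adjusted p = 4.76e-09). In standard serum it was at 6.83 and 5.71 in NEG and 2.28 and 2.15 in POS (−1.505 ± 0.19, adjusted p = 6.50e-06). POS and NEG libraries were well apart in each serum condition. In MDA-MB-436, TLE2 was at 14.7 to 16.3 in low serum and 9.97 to 13.7 in standard serum, with overlapping POS and NEG replicates and log2 fold changes of 0.06 and −0.09 (adjusted p = 0.68 and 0.63). Without replicate 2 of MDA-MB-436 POS in standard serum, the latter was −0.34 with an adjusted p of 0.047. The lines differed in low serum (interaction −1.67, adjusted p = 4.77e-08) and standard serum (−1.41, adjusted p = 0.00011).

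TLE3 also fell in MDA-MB-231. It went from 229.8 and 220.2 to 169.5 and 157.1 in low serum (−0.46 ± 0.05, adjusted p = 1.77e-09) and from 90.3 and 88.7 to 54.8 and 57.5 in standard serum (−0.67 ± 0.08, adjusted p = 2.19e-06). In MDA-MB-436, where it is scarce, TLE3 rose from 15.7 and 16.6 to 21.6 and 24.1 in low serum (0.50 ± 0.07, adjusted p = 2.86e-07) and stood at 10.995 and 11.1 against 10.97 and 11.6 in standard serum (0.03 ± 0.09, adjusted p = 0.81). The TLE3 changes of the lines differed in low serum (−0.96, adjusted p = 1.05e-11) and standard serum (−0.70, adjusted p = 0.00011). The low-serum rise in MDA-MB-436 was not called on log2(TPM + 1) (0.20, adjusted p = 0.23).

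TLE4 rose in MDA-MB-436, the line that expresses it. It went from 56.3 and 57.7 to 90.9 and 90.8 normalised CPM in low serum (0.67 ± 0.06, adjusted p = 5.14e-13) and from 27.4 and 27.1 to 48.2 and 46.2 in standard serum (0.80 ± 0.09, adjusted p = 2.56e-06). Without replicate 1 or 2 of the POS group in standard serum the rise was 0.75 and 0.82, and on log2(TPM + 0.1) the low-serum rise was 0.42 and not called (adjusted p = 0.094). In MDA-MB-231 in low serum TLE4 had 7 and 9 counts in NEG and 16 and 16 in POS (log2 1.05 ± 0.38, adjusted p = 0.035), a ratio of 2.09 with a counting interval of 1.11 to 4.08. This call was lost without any 1 of the 4 libraries (0.87 to 1.26, adjusted p = 0.065 to 0.20). In standard serum all 4 libraries of MDA-MB-231 had 0 counts, so no fold change is given there. A count of 0 allows a level of up to 0.105 normalised CPM in the shallowest of these libraries (3 counts).

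TLE1, the most abundant TLE gene by TPM in 7 of 8 groups, changed little. It rose in MDA-MB-231 from 71.0 and 74.8 to 88.4 and 87.9 in low serum (0.27 ± 0.05, adjusted p = 6.50e-05) and from 69.3 and 72.6 to 88.3 and 88.9 in standard serum (0.32 ± 0.08, adjusted p = 0.0049). In MDA-MB-436 it rose from 103.7 and 102.0 to 114.7 and 118.7 in low serum (0.18 ± 0.05, adjusted p = 0.0033) and was at 73.3 and 78.2 against 65.6 and 75.04 in standard serum (−0.11 ± 0.08, adjusted p = 0.29). The interaction passed in standard serum only (0.43, adjusted p = 0.0056). The value in low serum was 0.09 (adjusted p = 0.34). On log2(TPM + 1), the low-serum changes of TLE1 were 0.07 in MDA-MB-231 and −0.06 in MDA-MB-436, neither of them called. The rise in MDA-MB-436 in low serum was lost without POS replicate 2 (0.12, adjusted p = 0.12), that in MDA-MB-231 in standard serum without NEG replicate 1 (0.29, adjusted p = 0.068), and without replicate 2 of MDA-MB-436 POS in standard serum TLE1 was −0.21 with an adjusted p of 0.022.

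By the interaction test, 4 of 10 genes differed between the lines in low serum (45.7% of all genes) and 5 of 10 in standard serum (41.2%). With the fold threshold, 1 remained in low serum (TLE2, background 11.7%) and 2 in standard serum (TCF7L1 and TLE2, 13.8%). TLE4 in standard serum has no interaction value, since 1 of the lines was at 0. The standard-serum interactions that had passed still did without replicate 1 or 2 of MDA-MB-436 POS, at −2.87 and −2.97 for TCF7L1, −0.82 and −0.92 for LEF1, 0.34 and 0.53 for TLE1, −1.62 and −1.18 for TLE2 and −0.74 and −0.67 for TLE3, and BCL9 joined them without replicate 1.

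Each fold change was set beside the median of its region, the 50 nearest expressed genes on the chromosome. TLE3, on chromosome 15 (GRCh37, 70340129 to 70390515), fell by 0.46 and 0.67 in MDA-MB-231, and its neighbours had medians of −0.49 and −0.56. CTNNB1, on chromosome 3 (41236232 to 41301587), rose by 0.67 and 0.26 in MDA-MB-436, and its neighbours had medians of 0.63 and 0.58. TLE3 in each serum condition and CTNNB1 in low serum thus lay within the quartiles of their regions, and CTNNB1 in standard serum lay below the region; the part of the region in these values was not tested. In MDA-MB-231, by contrast, the neighbours of CTNNB1 had medians of 0.00 and −0.05.

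Other members stood apart from their regions. BCL9 (chromosome 1, 147013271 to 147098017) was 0.53 and 0.56 lower than the median of its neighbours in MDA-MB-231 and 0.52 and 0.72 lower in MDA-MB-436, in low and standard serum. LEF1 (chromosome 4, 108968701 to 109090112) exceeded its neighbours by 0.49 and 0.84 in MDA-MB-436 and by 0.50 in MDA-MB-231 in low serum. TLE2 (chromosome 19, 2997637 to 3047633) lay 1.52 below its neighbours in each serum condition of MDA-MB-231, and TLE4 (chromosome 9, 82186688 to 82341797) lay 0.76 above them in each serum condition of MDA-MB-436. TLE1, at 84198598 to 84304462 on the same chromosome, rose in MDA-MB-231 while its neighbours had medians of −0.25 and −0.36.

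**Figure D3:**
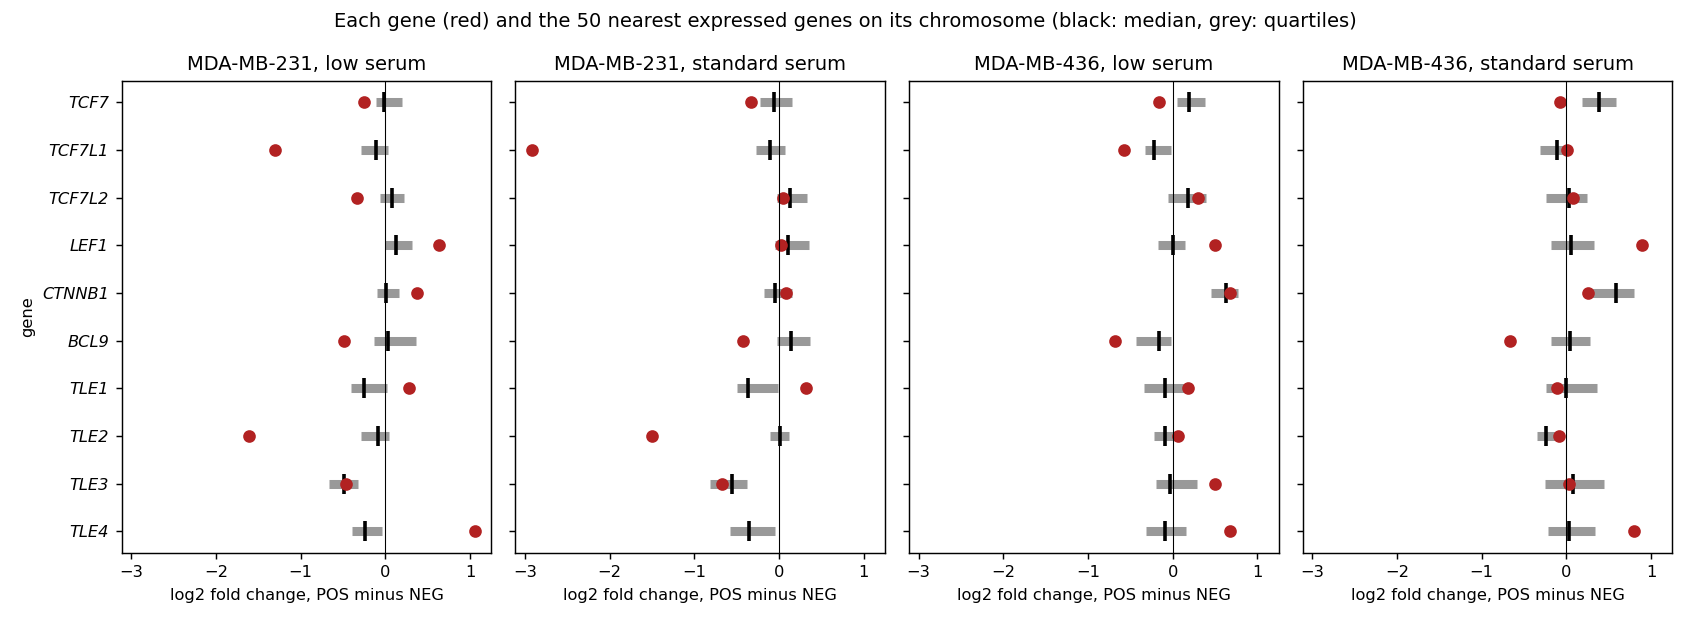
Log2 fold change of POS over NEG of each gene (red) beside the median (black) and quartiles (grey) of the 50 nearest genes on its chromosome whose mean CPM reached 1, in the 4 comparisons; TLE4 in MDA-MB-231 in standard serum has no point. TLE3 in MDA-MB-231 and CTNNB1 in MDA-MB-436 in low serum lie within the quartiles of their neighbours, and BCL9 lies below them in every panel.

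The make-up of each family was compared on the deposited TPM, which allows for gene length. Within the TCF/LEF genes of MDA-MB-231 in low serum, TCF7L2 made up 63.3% ± 1.38 (SD, n = 2) of the summed TPM in NEG and 49.3% ± 3.20 in POS, and LEF1 29.7% ± 1.72 and 45.5% ± 2.75. In MDA-MB-436 in low serum the LEF1 share was 38.2% ± 0.81 in NEG and 45.3% ± 0.05 in POS, and the TCF7L1 share 8.68% ± 0.95 and 4.92% ± 0.24. In standard serum the LEF1 share was 16.7% ± 0.01 and 26.6% ± 0.51 in MDA-MB-436, and 33.9% ± 2.05 and 34.4% ± 0.47 in MDA-MB-231. POS and NEG replicates of the LEF1 share did not overlap in low serum in either line, nor in MDA-MB-436 in standard serum. In MDA-MB-231 in standard serum they did (35.3% and 32.4% in NEG, 34.1% and 34.7% in POS). The summed TPM of the 4 genes in low serum was 11.31 to 14.82 in MDA-MB-231 and 17.05 to 20.04 in MDA-MB-436. For MDA-MB-436 in standard serum the sum was higher in POS, at 72.36 and 66.79 against 55.58 and 55.52 in NEG. These shares and sums were not tested.

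The TLE family was made up differently in each line. In MDA-MB-231 NEG, TLE1 and TLE3 together held nearly all of it: 43.4% ± 1.03 and 52.0% ± 2.22 of the summed TPM in low serum, and, with standard serum, 62.6% ± 1.54 and 30.7% ± 0.64. In POS cells the TLE1 share was 57.1% ± 1.22 and 78.3% ± 0.35, and the TLE3 share 41.1% ± 1.14 and 19.3% ± 0.48. In MDA-MB-436 the shares of TLE3 were 3.72% to 4.44% in all groups, and TLE4 took 21.4% ± 0.49 in NEG and 27.6% ± 0.66 in POS in low serum, and, with standard serum, 14.8% ± 0.67 and 24.5% ± 2.62. TLE2 held 9.55% to 13.6% in MDA-MB-436 and 1.58% to 6.72% in MDA-MB-231. In counts without a length term the TLE3 share in MDA-MB-231 NEG in low serum is 73.9%, so the balance of TLE1 and TLE3 depends on gene length.

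**Figure D4:**
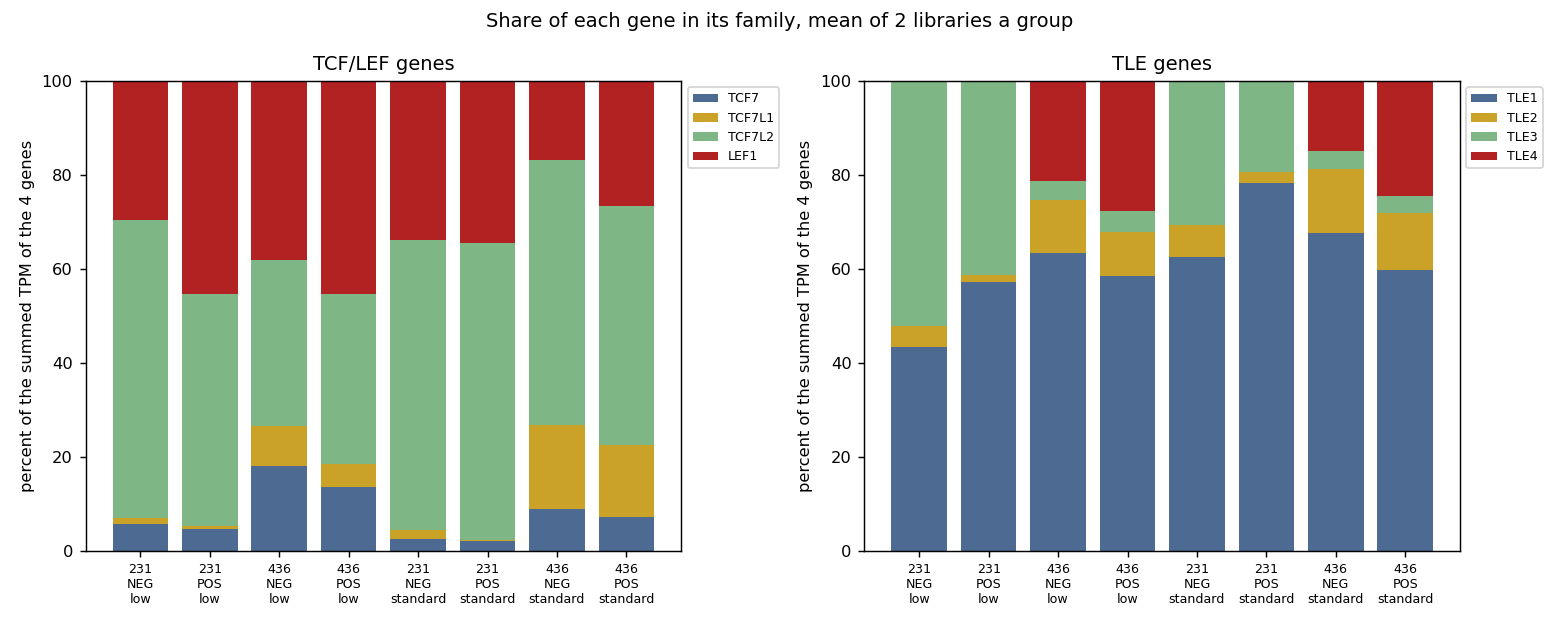
Mean share of each gene in the summed TPM of the 4 TCF/LEF genes (left) and the 4 TLE genes (right), in percent, for the 8 groups (2 libraries each). TCF7 and TCF7L1 are thin in MDA-MB-231, and the LEF1 share is larger in POS than in NEG in low serum in each line. The TLE3 share is larger in MDA-MB-231 and the TLE4 share larger in MDA-MB-436.

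The second question is how the lines, each grown in its own medium, differ in NEG and in POS cells. MDA-MB-436 had far more TLE4, TCF7L1 and TCF7 and more TLE2 and BCL9 than MDA-MB-231, and MDA-MB-231 had more TLE3 and CTNNB1. In low serum, 10 of 10 genes passed in NEG (79.2% of all genes did) and 10 of 10 in POS (78.5%), and with the fold threshold 6 (41.9%) and 6 (38.9%). In standard serum, 9 of 10 passed in NEG (78.8%) and 10 of 10 in POS (79.4%), and with the threshold 6 (46.7%) and 6 (45.4%). Between lines most genes differ, and the shares among the 10 genes are to be read against that.

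TLE4 had the largest difference of the 10. In low serum, MDA-MB-436 had 190 times as much as MDA-MB-231 in NEG (counting interval 117 to 333) and 145 times in POS (103 to 212). In standard serum, MDA-MB-436 NEG libraries had 943 and 1091 counts and POS libraries 2345 and 1815, against 0 in MDA-MB-231, which makes TLE4 at least 273-fold higher in NEG and at least 505-fold higher in POS (against a floor of 3 counts a library). The 50 neighbours of TLE4 had medians of −0.80 to −0.26 for MDA-MB-231 minus MDA-MB-436 over the 4 comparisons. The promoters of all 10 genes were searched for the Tcf/Lef motif, and parts are shown where its shorter core was found. Of the 17 RefSeq promoters of the 10 genes (windows around a transcription start, GRCh38.p14), 0 hold the Tcf/Lef consensus ATCAAAG on either strand, which 2.62% of all 35116 promoters do. The shorter core TCAAAG, which the consensus contains, is in 12.9% of all promoters and, among the 10 genes, in 2 promoters, both of TLE4, at chr9:79571934-79571963 and chr9:79573051-79573080 (plus strand). The core is in capitals, its first base lying 19 and 114 bases before the start; in the second window it is on the opposite strand and reads CTTTGA.
TLE4 promoter 1: tgctaaatttggTCAAAGaagtcacctaca
TLE4 promoter 2: tcttattgttgtCTTTGAagcccctggaag
A match is a description of these letters and no evidence of binding.

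TLE3 showed the opposite order of the lines. Normalised CPM was 220.2 and 229.8 in MDA-MB-231 NEG and 15.7 and 16.6 in MDA-MB-436 NEG in low serum, which is 13.9-fold (log2 3.80 ± 0.07, adjusted p = 8.84e-38). The difference was 2.84 ± 0.06 in POS in low serum, and 3.02 ± 0.09 and 2.32 ± 0.09 in NEG and POS in standard serum. No library of either line overlapped the other. CTNNB1 was 1.80 ± 0.05 and 1.499 ± 0.05 higher on the log2 scale in MDA-MB-231 in low serum (NEG and POS), and 1.002 ± 0.07 and 0.82 ± 0.07 in standard serum. The standard-serum NEG value of CTNNB1 lies just inside the fold threshold, and TLE2, at −0.998 there, just outside it. The 50 neighbours of CTNNB1 had medians of 0.81 and 0.80 in NEG and of 0.15 and 0.23 in POS (low, standard serum), and the part of the region in these values was not tested.

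TCF7 was lower in MDA-MB-231 in all 4 comparisons, with log2 fold changes of −1.62 ± 0.13 (NEG) and −1.71 ± 0.14 (POS) in low serum and, with standard serum, −2.50 ± 0.16 and −2.75 ± 0.16, whereas its neighbours had medians of 0.06 to 0.71. TCF7L1 stood at −2.63 ± 0.32 in NEG in low serum and −3.998 ± 0.18 in NEG in standard serum. In POS, where MDA-MB-231 held 8 counts in low serum and 6 in standard serum over 2 libraries, MDA-MB-436 had 10.6 times (counting interval 5.14 to 25.2) and 126 times as much (57.7 to 344). The repressor-type factor was thus measured well in MDA-MB-436 alone. BCL9 was lower in MDA-MB-231 (−0.74 ± 0.06 in NEG and −0.54 ± 0.07 in POS in low serum, −1.70 ± 0.10 and −1.45 ± 0.10 in standard serum), beside neighbour medians of −1.06, −0.65, −0.86 and −0.62 in that order. TLE2 was lower as well, at −1.29 ± 0.13 in NEG and −2.96 ± 0.16 in POS in low serum, and −2.41 ± 0.17 in POS in standard serum.

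LEF1, TCF7L2 and TLE1 had no stable order of the lines. LEF1 was slightly lower in MDA-MB-231 NEG in low serum (−0.33, adjusted p = 0.0033) and slightly higher in standard serum (0.33, adjusted p = 0.0076). In POS it was lower in each serum condition (−0.20, adjusted p = 0.049, and −0.54, adjusted p = 8.34e-05), and the low-serum call in POS was lost with DESeq2 (−0.17, adjusted p = 0.25) and without any 1 of its 4 libraries (−0.21 to −0.14). TCF7L2 was higher in MDA-MB-231 in low serum (0.88 in NEG and 0.25 in POS, the latter −0.10 and not called on log2(TPM + 1)) and lower in standard serum (−0.56 and −0.60). TLE1 was lower in low serum (−0.50 and −0.40), did not pass in NEG in standard serum (−0.09, adjusted p = 0.29, 95% interval −0.25 to 0.06), and was higher in POS in standard serum (0.33, adjusted p = 0.0010).

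The standard-serum differences in POS were also fitted without replicate 1 or 2 of MDA-MB-436 POS. TLE1 then stood at 0.24 and 0.42, TLE2 at −2.63 and −2.18, TLE3 at 2.27 and 2.34, CTNNB1 at 0.81 and 0.82 and BCL9 at −1.31 and −1.60. TCF7 stood at −2.66 and −2.85, TCF7L1 at −6.88 and −6.98, TCF7L2 at −0.52 and −0.69 and LEF1 at −0.497 and −0.60. All of these kept an adjusted p under 0.05, and TLE4 was at least 494-fold and 515-fold higher in MDA-MB-436.

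**Figure D5:**
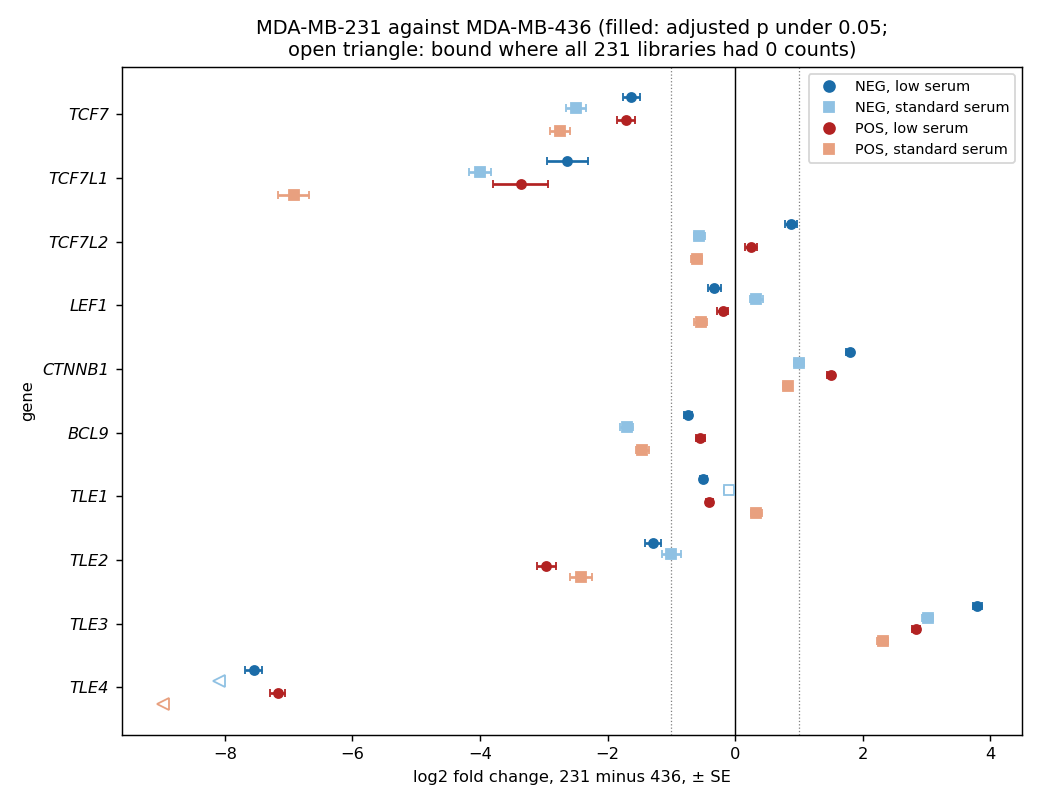
Log2 fold change of MDA-MB-231 over MDA-MB-436 with its standard error, in NEG and POS cells of each serum condition; filled symbols have an adjusted p under 0.05, dotted lines mark −1 and 1, and open triangles are bounds for TLE4, whose MDA-MB-231 libraries held 0 counts in standard serum. TLE4, TCF7L1 and TCF7 lie far to the left and TLE3 far to the right in all 4 comparisons.

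The partners of these genes were counted from 5 lists, and each count is to be read against the share of all genes tested that passed, which was 38.9% in MDA-MB-231 and 52.0% in MDA-MB-436 in low serum and, with standard serum, 33.0% and 49.5%. Past the fold threshold these shares were 5.90% and 10.5%, and 7.69% and 12.5%. Of 14 coactivators of β-catenin and TCF (among them BCL9L, PYGO2 and CREBBP), 8 passed in MDA-MB-231 and 7 in MDA-MB-436 in low serum and, with standard serum, 3 and 10, with 0 past the fold threshold in any of the 4 comparisons and medians of −0.12 to 0.07. Of 12 other corepressors and inhibitors, 5 and 9 passed in low serum and, with standard serum, 2 and 9, and the gene past the fold threshold was SOX17, a β-catenin antagonist. SOX17 had 2 counts over the NEG and 218 over the POS libraries of MDA-MB-436 in low serum, a ratio of 111 with a counting interval of 30.4 to 925, and was at least 28.1-fold higher in POS in standard serum, where NEG libraries had 0 (at least 32.5-fold and 23.7-fold without POS replicate 1 or 2). In MDA-MB-231 it held at most 1 count over a group. Of 12 genes of β-catenin turnover (APC, AXIN1, GSK3B and others), 6 and 7 passed in low serum and, with standard serum, 3 and 7, with 0 past the fold threshold. Medians were −0.08 and 0.08 in low serum and, with standard serum, −0.09 and 0.13.

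Of 9 genes of β-catenin at cell junctions, 3 passed in low serum in MDA-MB-231 and 5 in MDA-MB-436, and 4 and 7 of 8 tested in standard serum. In MDA-MB-436, JUP, the β-catenin paralogue γ-catenin, had a log2 fold change of −1.49 ± 0.06 in low serum, from a mean of 53.6 to 19.1 normalised CPM, and of −2.65 ± 0.10 in standard serum, from 59.6 to 9.53. CTNND2 (δ-catenin) fell there too (−1.28 ± 0.19 and −1.32 ± 0.21), as did CTNNA2 (an α-catenin), whose ratio of POS to NEG was 0.237 (counting interval 0.136 to 0.393) in low serum and 0.0514 (0.0230 to 0.1002) in standard serum. Without replicate 1 or 2 of MDA-MB-436 POS in standard serum, JUP stood at −2.49 and −2.84, CTNND2 at −1.35 and −1.31 and CTNNA2 at −3.47 and −5.49 on the log2 scale, and each kept its call. CTNNA3 in MDA-MB-231 in standard serum had 3 counts in NEG and 16 in POS (ratio 5.02, counting interval 1.44 to 26.9, adjusted p = 0.036). The medians of the list were 0.46 and −0.36 in low serum, and, with standard serum, −0.03 and −1.09, the former over 6 genes above the floor and 0.12 over all 8. Junction genes were not set beside their chromosomal neighbours, so the part of the region in changes such as that of CTNND2 was not tested.

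Of 17 known target genes of β-catenin and TCF, 10 passed in low serum in each line (8 higher and 2 lower in MDA-MB-231, 7 higher and 3 lower in MDA-MB-436). With standard serum, 5 passed in MDA-MB-231 (2 higher and 3 lower) and 8 in MDA-MB-436 (5 higher and 3 lower). LGR5, a Wnt target and R-spondin receptor, rose in MDA-MB-231 in low serum by 1.40 ± 0.22, and RNF43 and TNFRSF19 rose there in standard serum by 1.11 ± 0.19 and 1.08 ± 0.23. In MDA-MB-436, DKK1, a secreted Wnt antagonist, rose by 2.11 ± 0.06 under low serum and 1.78 ± 0.08 under standard serum. BMP4 rose by 2.96 ± 0.18 in low serum, and CD44 and TNFRSF19 rose by 1.21 ± 0.07 and 2.47 ± 0.27 in standard serum. NKD2, another antagonist, fell in MDA-MB-436 in low serum (log2 −2.599 ± 0.12). In standard serum, 3 targets rose and 3 fell past the fold threshold in MDA-MB-436, and the latter are named after their values were seen: NKD2 (−1.94 ± 0.27, adjusted p = 0.0041), the transcription factor SP5 (−1.13 ± 0.24, adjusted p = 0.00064) and RNF43, with 19 counts in NEG and 4 in POS (ratio 0.179, counting interval 0.0443 to 0.539). Without replicate 1 or 2 of MDA-MB-436 POS there, DKK1 stood at 1.75 and 1.797, CD44 at 1.19 and 1.21, TNFRSF19 at 2.46 and 2.45, NKD2 at −1.64 and −2.32 and SP5 at −0.87 and −1.42, all with an adjusted p under 0.05. RNF43 was lost without replicate 1 (−1.70, adjusted p = 0.11) and not without replicate 2 (−3.43, adjusted p = 0.011). Over the genes above the floor, the medians were 0.33 and 0.26 in low serum and, with standard serum, −0.16 and 0.03; over all 17 the standard-serum medians were 0 and −0.12, so their sign rests on the scarce genes. AXIN2 stands in this list and in the turnover list. Unlike the 10 members, the targets were not set beside their chromosomal neighbours. The part of the region in changes such as that of NKD2 was therefore not tested.

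Between the lines, 2 to 4 of the coactivators, 2 to 4 of the corepressors, 2 of the turnover genes, 4 to 6 of the junction genes and 13 or 14 of the targets passed the fold threshold in the 4 comparisons, where 38.9% to 46.7% of all genes did. In NEG cells in low serum, PYGO1, a Pygopus partner of BCL9, was lower in MDA-MB-231 (log2 −1.51 ± 0.08). CTNNBIP1, an inhibitor of β-catenin binding to TCF, was 1.57 ± 0.07 higher there, and AXIN2 2.09 ± 0.15 higher. CDH2 (N-cadherin), to which β-catenin binds at the membrane, was lower (−7.86 ± 0.09), and CCND1 (cyclin D1) 3.30 ± 0.05 higher. In NEG cells in standard serum, PYGO1 and AXIN2 were not past the fold threshold. CTNNBIP1 (1.45 ± 0.09), CDH2 (−8.63 ± 0.16) and CCND1 (2.89 ± 0.07) were.

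For the members past the fold threshold in a POS against NEG comparison, the genes most alike in pattern were sought over the 8 group means, among 15286 genes, by the root mean square difference of log2(CPM + 0.5) centred within each serum condition. Those nearest to TCF7L1 were E2F2 (0.20), ORC1 (0.22) and KREMEN1 (0.29). Those nearest to TLE2 were JAK3 (0.15), KANK1 (0.23) and SIGIRR (0.24), and those nearest to TLE4 were BMP7 (0.20), ADGRA2 (0.20) and TBX18 (0.21). On TPM in place of CPM, 2, 2 and 0 of the 3 genes stayed among the nearest, so the genes named for TLE4 rest on the scale.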

How the data were processed

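Bulk RNA-Seq libraries of 8 groups (2 each) were analysed by serum condition. The authors deposited whole-number counts per gene. Their methods name Bowtie for removing ribosomal reads, STAR (2.6.1a in the submitters' processing notes) with hg19, and Gencode v19 genes. The TPM values were deposited with them, and how they were computed is not given in the sources used here. Symbols came from Gencode v44 lifted to GRCh37 (55538 of 57820 rows matched, 10 of 10 members).

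Protein-coding genes with at least 10 counts over 8 libraries were tested (16069 in low serum, 15414 in standard serum) with TMM factors and edgeR's robust quasi-likelihood test on 4 groups per serum condition, with Benjamini-Hochberg adjustment over all genes. Adjusted p-values in the text are from this test unless another tool or scale is named. SE was derived from the F statistic of each contrast, and 95% intervals are 1.96 SE to each side. Normalised CPM divides counts by TMM-scaled totals. Counting intervals are exact binomial and cover counting error only. The comparisons were POS against NEG per line, line against line in NEG and POS, and their interaction. Alternatives were DESeq2 and its size factors, other filters, all biotypes, 2 groups alone, limma-trend on log2 TPM, a replicate block and leaving out each library. The sources call the replicates biological and say no more of them, so p-values measure the spread between these libraries. On simulated data with 200 genes changed 4-fold, edgeR recovered 100% of them in low serum (16069 genes, 0 false calls) and 99% in standard serum (15414 genes, 3 false calls). The changed genes were drawn only among those above a minimum mean CPM. Recovery of changes under 4-fold, or at few counts, was not measured.

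The text names the 10 members, at most 3 genes per partner list and comparison past the thresholds by adjusted p, and the 3 genes nearest in pattern to each member past them; for the lines, the named genes are part of what the rule selects, chosen after their values were seen. Members and lists were chosen with earlier results of these data known. Statistics ran in R 4.3.3 (limma 3.58.1, edgeR 4.0.16 and DESeq2 1.42.0); tables and plots were made in Python 3.11.15 with scipy 1.17.1, pandas 2.3.3 and matplotlib 3.10.9.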

Additional observations from a re-analysis of the deposited data

Results flagged for a closer look

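By the interaction test, the change from NEG to POS differed from line to line for 4 genes in low serum, given as MDA-MB-231 minus MDA-MB-436 on the log2 scale: TCF7L2 by −0.626, CTNNB1 by −0.299, TLE2 by −1.67 and TLE3 by −0.961. In standard serum it differed for 5 genes: TCF7L1 by −2.92, LEF1 by −0.872, TLE1 by 0.429, TLE2 by −1.41 and TLE3 by −0.703. TLE2 and TLE3 differed in each serum condition. For the same interaction, the 50 neighbours of CTNNB1 had a median of −0.574 in low serum. Those of TLE3 had −0.497 in low and −0.594 in standard serum, and those of TLE2 −0.021 and 0.264. Neighbours of TCF7L2 had −0.186 in low serum. With standard serum, neighbours of TCF7L1, LEF1 and TLE1 had 0.063, −0.003 and −0.414. The part of the region in these differences was not tested. The CTNNB1 difference in low serum was not called on log2(TPM + 1) (−0.25, adjusted p = 0.14).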

How the results depend on the processing

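With 2 libraries a group, counts of genes past the fold threshold are small, and 1 gene moves them. With an adjusted p under 0.05 alone, the count of 2 in MDA-MB-231 became 8 in low serum and 5 in standard serum, that of 0 in MDA-MB-436 became 8 and 4, that of 6 between the lines became 10 in NEG and POS in low serum and 10 in POS in standard serum, and those of the interaction became 4 and 5. The low-serum count in MDA-MB-231 was 1 with only the groups compared and on log2(TPM + 1) and log2(TPM + 0.1), where TLE4 was not called. On log2(TPM + 1), the standard-serum count in MDA-MB-231 was 1, and the interaction counts were 0 in low and 1 in standard serum. Leaving out each library in turn gave 1 to 2 genes in MDA-MB-231 in low serum, 1 to 2 for the low-serum interaction, 5 to 6 between the lines in NEG in standard serum, and no other change of a count. On log2(TPM + 1), the median of all genes moved by −0.16 in MDA-MB-231 and −0.22 in MDA-MB-436 in low serum relative to the count fit, and by 0.02 and 0.08 in standard serum; between the lines it moved by −0.35 to −0.15.

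Of the fold changes of single genes that changed sign, none passed the test in the setting that turned it. On log2(TPM + 1) and log2(TPM + 0.1) in low serum, TLE1 in MDA-MB-436 was −0.065 and −0.066, TLE2 there was −0.17 and −0.18, and TCF7L2 between the lines in POS was −0.10 and −0.11; TLE1 and TCF7L2 had passed on counts. The TCF7 interaction was 0.12 and 0.0036 on these scales, and on log2(TPM + 1) the TCF7L1 interaction was 0.28 and that of TLE4 −0.32. In MDA-MB-436 in standard serum, TCF7L1 was −0.0187 with DESeq2 size factors, −0.0189 with DESeq2 and −0.0071 over all biotypes, and TCF7 was 0.013 and 0.015 on the TPM scales. Leaving out 1 library at a time, values near 0 crossed it: in low serum TLE2 in MDA-MB-436 ranged from −0.033 to 0.088 and the TCF7 interaction from −0.18 to 0.044; in standard serum LEF1 in MDA-MB-231 from −0.077 to 0.14 and TCF7L2 from −0.014 to 0.093, and in MDA-MB-436 TCF7L1 from −0.053 to 0.046, TCF7L2 from −0.015 to 0.15, TLE2 from −0.34 to 0.11, TCF7 from −0.19 to 0.0055 and TLE3 from −0.012 to 0.056, with a TCF7L2 interaction of −0.12 to 0.049. The cause was not tested.

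Replicate numbers are not said to mark a shared day, and same-numbered POS and NEG libraries did not deviate together in low serum (r over genes of −0.00 and −0.12) and weakly in standard serum (0.22 and 0.17). With a replicate block, the counts past the fold threshold were 2 and 0 in MDA-MB-231 and MDA-MB-436 in each serum condition, and BCL9 was −0.68 in MDA-MB-436 in standard serum. The block ended 1 call, that of LEF1 between the lines in POS in low serum (−0.20, adjusted p = 0.060).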
